A study of Danio rerio with 16 samples.

Results

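The Scientific Hatcheries (SH) brain was compared with the brains of 3 other zebrafish strains, AB, LSB and HSB, on log2(CPM + 0.5), where CPM is a gene's read count scaled to the same total in every library. The SH group was formed from the 4 libraries that the labels give to this strain, of 16 in all. A gene was kept as outside the range when all 4 SH libraries lay above, or all lay below, the other 12 libraries. Of 15304 protein coding genes, 2512 (16.4%) met this rule, 1885 higher (12.3%) and 627 lower (4.1%) in SH.

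Each strain had 2 female and 2 male pools, and each pool held brain RNA of 10 fish of one sex, aged 17 weeks. All fish were kept in mixed sex tanks and received no treatment. SH and AB were bought from commercial suppliers. The LSB and HSB lines came from the wild and were bred for low and high stationary behavior, and some of their fish had passed a behavior test before sampling. Each strain is represented by a single line, and SH had been bred in the laboratory for fewer generations than AB. Brains were removed quickly and in the morning in all strains. The labels do not give the tank or day of dissection, so effects of rearing and sampling cannot be told apart from strain. A pool mixes fish, so the spread between libraries is a spread between pools, and in whole brain fewer cells of a type and less RNA per cell cannot be told apart.

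The zebrafish brain holds neurons, radial glia, oligodendrocytes that form myelin, microglia, blood vessels and blood. Neurons answer activity with immediate early genes, which encode transcription factors such as Fos and Npas4 and are switched on within minutes. Peptides such as oxytocin, urotensin 1 and neuropeptide Y are made by distinct neurons and serve water balance, stress, social behavior and feeding. Immune receptor genes, including those of the major histocompatibility complex (MHC), which present peptides to T cells, are expressed in microglia, vessels and blood cells of the brain.

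The SH libraries held 23803770 to 35737825 reads on genes and the others 18398865 to 34883159. Of the neuronal markers 8 of 10 were in the table, and their summed level was 6240 to 6422 CPM in SH and 5895 to 6394 CPM in the others. Myelin markers were present at 26646 to 32035 CPM in SH and 35969 to 52143 CPM in the others, while 1 of 9 pituitary, 1 of 10 pancreas and 1 of 8 gonad markers were in the table, each at or below 6.36 CPM. The myelin gene mbpa alone took 1.95% to 2.37% of the reads in SH and 2.71% to 4.18% elsewhere. Median-ratio factors, which are the median over genes of a library's level relative to all libraries, were 1.02 to 1.04 in SH and 0.952 to 1.01 in the others. The 52143 CPM, 4.18% and 0.952 were all of LSB female pool 2. The paper left an LSB female pool, which it did not number, out of its network analysis as an outlier. The libraries labelled LSB female pool 2 and LSB male pool 2 went against their sex labels at dio2 and cyp19a1b, so that every value for one sex or for the difference between sexes carries this doubt. The labels were kept. The deiodinase gene dio2 was at 128 CPM in LSB female pool 2 and 40.1 CPM in LSB male pool 2, against 42.1 to 76.7 CPM in the other female and 110 to 198 CPM in the other male libraries. Over the 49 genes whose sexes did not overlap in SH, AB and HSB, LSB male against female pool 2 went in the same direction for 23 and LSB male against female pool 1 for 26. Without both LSB pools numbered 2, the rule kept 2039 genes higher and 713 lower in SH.

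The other strains gave fewer genes under the same rule, with 815 (5.33%) for AB, 848 (5.54%) for LSB and 508 (3.32%) for HSB. Rescaling the libraries by their median ratios left the SH total at 2294 genes but changed its split, from 75.0% higher to 53.3% higher (1222 higher and 1072 lower). All 1222 genes higher after rescaling were among the 1885, and all 627 genes lower in the deposited values were also lower after it. Both overlaps were fixed in advance. Every SH factor exceeded every other factor, so rescaling lowered each SH library against each of the other 12. Rescaling moved the median SH difference of all genes from 0.06 to 0.00 (log2). A linear model of strain and sex was also fitted gene by gene with limma. In it SH differed from the mean of the other strains at 4756 genes higher (31.1%) and 2493 lower (16.3%), with a Benjamini-Hochberg adjusted p under 0.05. After rescaling these counts were 3385 and 3413, or 49.8% higher against 65.6% before. As deposited, each strain against the mean of the rest gave 7249 genes for SH, 5746 for LSB, 3611 for AB and 2574 for HSB. SH stood less far from LSB in these counts than under the range rule. That rule needs all 4 libraries of a strain to agree, so an outlying library can lower its count. The rule and the fit read the same values, so a small p for a gene outside the range is no independent support.

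SH differed from LSB at 7506 genes (49%), from AB at 5629 (36.8%) and from HSB at 5009 (32.7%). This order depended on the doubted libraries. Without both LSB pools numbered 2 the counts were 6374 for LSB, 6759 for AB and 6204 for HSB. AB, LSB and HSB differed among themselves at 5551 genes (36.3%). Of the genes outside the range, 1352 of those higher (71.7%) and 532 of those lower (84.8%) in SH passed against each of the 3 strains. Against a single strain, 32.7% to 49% of all genes passed. The rule chose the genes outside the range on the same values, so their high shares are no added support. AB, LSB and HSB also differed among themselves at 29.2% of the genes higher and 39.7% of the genes lower in SH, beside 36.3% of all genes. The rule favours genes with little spread over the other 12 libraries, so these shares only describe the genes kept.

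**Figure D1:**
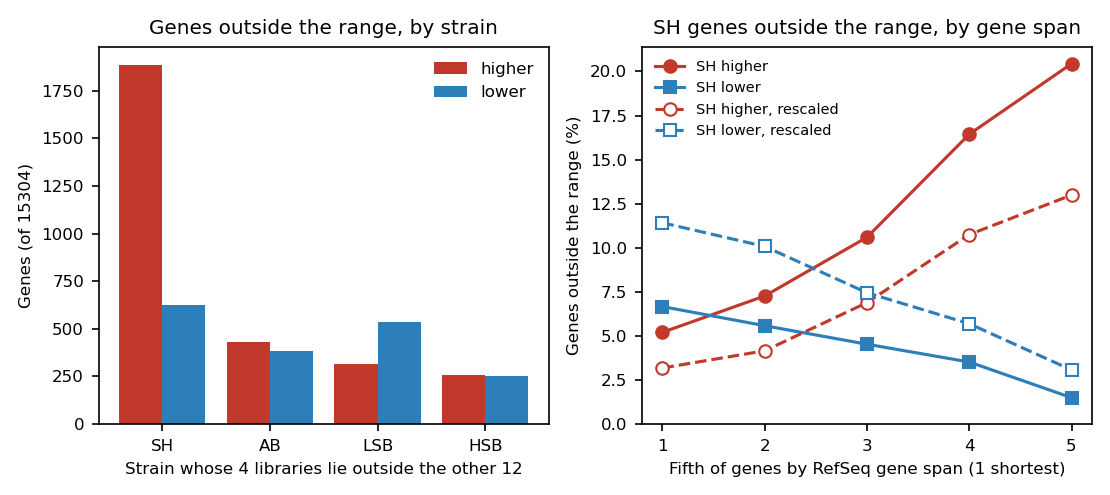
Genes outside the range of the other libraries. Left, bars give the number of genes whose 4 libraries of a strain all lay above (red) or below (blue) the other 12, with SH at 1885 and 627. Right, lines give the percent of SH genes outside the range in 5 equal groups of genes ordered by RefSeq gene span, as deposited (filled) and after median-ratio rescaling (open); the share higher rises from 5.2% to 20.4% and the share lower falls from 6.66% to 1.5%.

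Most differences were small. The median difference was 0.34 (log2) among genes higher and -0.36 among genes lower in SH, and 77.2% of the former and 68.4% of the latter lay under 0.5. A difference of at least 1 was reached by 82 genes higher and 56 lower. At a difference of at least 3 there were 3 genes higher and 9 lower. Clone or accession names made up 47.6% of the 82 and 50.0% of the 56, against 15.2% of all genes. Close to the threshold, slc4a2b, an anion exchanger, ranged from 78.77 CPM in SH against a highest value of 78.75 CPM elsewhere, and col18a1, a basement membrane collagen, from 49.58 against 49.57 CPM. Just outside it, ptprdb, a receptor phosphatase, and BX571853.2 had SH minima of 79.23 and 30.14 CPM that met the maxima of the other libraries. Among lower genes, PTP4A2 (2 of 2) and hsdl1 lay just inside, with SH maxima of 122.59 and 11.304 CPM against minima of 122.62 and 11.305 CPM. The receptor accessory gene neto1l and the ribosomal gene rps12 lay just outside, with SH maxima of 26.424 and 139.91 CPM and minima elsewhere of 26.421 and 139.90 CPM.

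The plot of genes by span shows a further property of the genes that moved. RefSeq gene spans were matched for 13353 genes (87.3%), and for 84.9% of the genes higher and 92.8% of the genes lower in SH. Over 5 equal groups ordered by span, from the shortest to the longest, the share of genes higher in SH went from 5.2% to 20.4% and the share lower from 6.66% to 1.5%. After rescaling the shares went from 3.18% to 13.0% and from 11.4% to 3.07%. In all 4 SH libraries the median deviation of the longest group exceeded that of the shortest, by 0.09 to 0.15 (log2), and in the other 12 libraries this difference ran from -0.35 to 0.06. The lowest values were those of LSB female pool 2 (-0.35) and LSB female pool 1 (-0.18). The part of gene span in the results was not tested.

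The gene with the largest positive difference was tubb4b (ENSDARG00000091444), a beta tubulin, a subunit of microtubules. It was at 5.48 and 3.83 CPM in the SH female pools and 8.04 and 5.34 CPM in the SH male pools, while the other 12 libraries ran from 0 to 0.163 CPM with a median of 0.0431 CPM. The groups were far apart, with 708 reads in the SH libraries and 20 in the other 12. Its difference was 3.42 ± 0.15 (log2, SE), and 5.15 with a constant of 0.1 CPM in place of 0.5. Reads of near-identical tubulin genes could be divided among models. The paper counted reads with HTSeq in its union mode and does not state how reads that align to several places in the genome were treated.

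The gene zgc:154055 (ENSDARG00000086885) was at 44.2 and 39.9 CPM in SH females and 23.9 and 29.8 CPM in SH males, against 2.30 to 4.60 CPM elsewhere (median 3.65 CPM). Its neighbour in the reference annotation, zgc:165525, named tdh2 there, was also higher, with 4.99 ± 0.30 CPM (SD, n = 4) in SH and 2.01 ± 0.61 CPM (SD, n = 12) in the others. No SH library reached down to the others for either gene. The gene zgc:114164, named myl4 in the reference and so a myosin light chain, stood at 5.48 to 11.4 CPM in SH and 0.0287 to 0.692 CPM in the others.

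Metabolic genes followed. The glycogen phosphorylase pygl (ENSDARG00000002197), which releases glucose from glycogen, was at 27.7 and 24.7 CPM in SH females and 35.1 and 33.5 CPM in SH males, against 2.41 to 13.7 CPM elsewhere (median 4.83 CPM). HSB had the highest mean of the other strains, 10.0 CPM, with 3.01 CPM in AB and 4.84 CPM in LSB. Against these strains the differences were 3.13 for AB, 2.53 for LSB and 1.57 for HSB (log2). The short-chain dehydrogenase gene dhrs13l1 was at 5.58 to 7.28 CPM in SH and 0.339 to 1.59 CPM elsewhere, and zgc:112375, named GBA3 in the reference, a glucosidase, was at 3.11 to 5.42 CPM and 0.390 to 1.14 CPM.

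**Figure D2:**
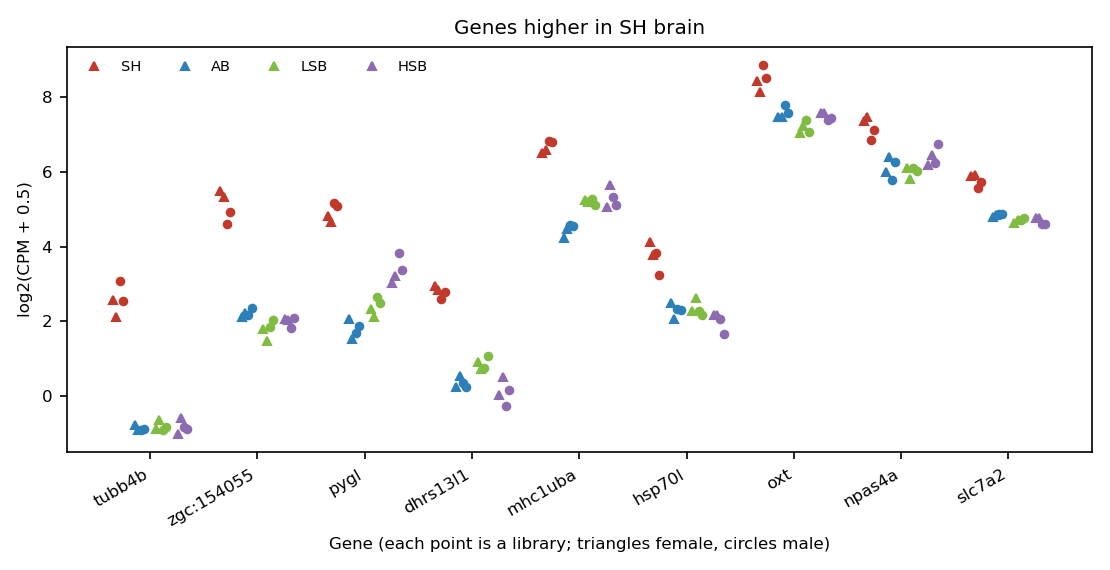
Levels of 9 genes higher in SH, on log2(CPM + 0.5). Each point is a library, with triangles for female and circles for male pools and colors for strains, and in every gene all 4 SH libraries lie above the other 12.

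The MHC class I gene mhc1uba (ENSDARG00000075963), which encodes a peptide presenting chain, was at 90.3 and 95 CPM in SH females and 113 and 110 CPM in SH males. Elsewhere it ran from 18.4 to 49.4 CPM (median 34.1 CPM), without overlap. The difference was 1.69 ± 0.09 (log2, SE; adjusted p = 1.8e-09, limma). Its partner chain gene b2ml, a beta-2-microglobulin, lay below the others instead, at 881 to 920 CPM against 923 to 1189 CPM, a difference of -0.19.

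The inducible heat shock gene hsp70l (ENSDARG00000055723), a protein folding chaperone, was at 17.0 and 13.2 CPM in SH females and 13.7 and 8.95 CPM in SH males, against 2.70 to 5.64 CPM elsewhere (median 4.21 CPM). The related chaperone hsp90aa1.1 was at 7.85 to 8.91 CPM in SH and 3.19 to 7.05 CPM in the others. Over the 74 heat shock and chaperone genes in the table, 12 lay above (16.2%) and 3 below the range (4.05%), beside 12.3% and 4.1% of all genes. Limma called 29 higher (39.2%) and 7 lower (9.46%), beside 31.1% and 16.3%. Their median difference was 0.07, beside 0.06 for all genes. After rescaling limma called 22 higher and 13 lower, beside 3385 and 3413 of all 15304 genes.

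Further genes with large positive differences included the lipid transporter abca12 (4.02 to 5.34 CPM in SH, 0.326 to 1.7 CPM elsewhere), the receptor tyrosine kinase mst1ra (2.40 to 4.11 and 0.0857 to 1.96 CPM) and ccdc40, a factor needed to build motile cilia (5.48 to 9.12 and 1.80 to 2.90 CPM). The gene si:ch211-261n11.7, named tnfrsf14 in the reference, a tumor necrosis factor receptor family member, was at 6.22 to 16.2 CPM in SH and 1.02 to 3.67 CPM elsewhere. The germline-associated gene rnf17 was near constant in SH, at 3.11 to 3.37 CPM, against 0.343 to 1.73 CPM. The only gonad marker measured, of 8 listed, was at 1.37 to 1.87 CPM in SH and 1.12 to 6.36 CPM elsewhere. The part of gonad tissue in the rnf17 difference was not tested.

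Immediate early genes were higher together. Of 25 genes in this list, 11 lay above the range and 0 below it, beside 12.3% and 4.1% of all genes. In limma 18 were higher (72%) and 0 were lower in SH, beside 31.1% and 16.3% of all genes. Their median difference was 0.36 against 0.06 for all genes. After rescaling, 17 were higher with a median of 0.30, beside 3385 of all 15304 genes called higher. Without both LSB pools numbered 2 there were 18, beside 5018 of all genes. In females or males alone there were 15 and 18, beside 2888 and 3204 of all genes. Handling before dissection cannot be told apart from strain.

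The activity-regulated transcription factor gene npas4a (ENSDARG00000055752) was at 164 and 176 CPM in SH females and 116 and 139 CPM in SH males. Elsewhere it ran from 54.6 to 107 CPM, with a median of 70.5 CPM. The AP-1 gene fosb was at 27.6 and 28.3 CPM in SH females and 37.3 and 36.2 CPM in SH males, against 11.6 to 23.2 CPM. For both, every SH library was above every other library, and npas4a was higher in the female pools of SH while fosb was higher in the male pools. The differences were 1.03 ± 0.12 and 1.00 ± 0.11 (log2, SE). The AP-1 gene fos was at 22.3 to 28.0 CPM in SH and 11.1 to 19.95 CPM elsewhere, and the nuclear receptor gene nr4a1 at 15.0 to 17.9 and 7.57 to 14.9 CPM.

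Of 42 neuropeptide and pituitary hormone genes, 3 lay above the range (7.14%) and 0 below it, under the 12.3% and 4.1% of all genes. Limma called 14 higher (33.3%) and 6 lower (14.3%), near the 31.1% and 16.3% of all genes. After rescaling it called 10 and 8, beside 3385 and 3413 of all 15304 genes. The oxytocin gene oxt (ENSDARG00000042845) was at 341 and 280 CPM in SH females and 459 and 362 CPM in SH males, against 131 to 220 CPM elsewhere (median 174 CPM). All 4 SH libraries were above the others, at a difference of 1.06 ± 0.09 (log2, SE; adjusted p = 3.4e-07, limma). The stress peptide gene uts1 was at 77.2 to 103 CPM in SH and 57.6 to 72.4 CPM elsewhere. The feeding peptide gene npy was at 150 to 157 CPM in SH and 110 to 142 CPM in the others, a difference of 0.30.

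Ion channels set the excitability of neurons, and glutamate is their main excitatory transmitter. Of 132 sodium, potassium and calcium channel genes, 28 lay above (21.2%) and 1 below the range (0.76%), beside 12.3% and 4.1% of all genes. Limma called 61 higher (46.2%) and 3 lower (2.3%), beside 31.1% and 16.3%, with a median of 0.18. After rescaling limma called 47 higher and 8 lower, beside 3385 and 3413 of all 15304 genes. The largest difference outside the range was at cacna2d4b, a calcium channel accessory subunit, at 47.8 to 58.6 CPM in SH and 25.5 to 36.9 CPM elsewhere. The share of genes higher in SH also rose with gene span over all genes, and the part of span in this list was not tested.

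Of 35 glutamate receptor genes, 8 lay above (22.9%) and 2 below the range (5.71%), and limma called 16 higher (45.7%) and 3 lower (8.57%), with 13 and 3 after rescaling. The shares of all genes were 12.3%, 4.1%, 31.1% and 16.3%, and after rescaling limma called 3385 higher and 3413 lower of all 15304 genes. The NMDA receptor gene grin2ca was at 84.8 and 93.1 CPM in SH females and 105 and 96.3 CPM in SH males, against 58.3 to 71.4 CPM. The AMPA receptor gene gria1a (ENSDARG00000021352) went the other way, at 47.7 to 52.1 CPM in SH and 58.9 to 83.2 CPM elsewhere. Of 32 genes of GABA and glycine signalling, 0 lay outside the range, beside 12.3% above and 4.1% below it among all genes. Limma called 10 higher (31.2%) and 1 lower (3.1%), beside 31.1% and 16.3% of all genes (6 and 5 after rescaling).

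Amino acid transporters were among the higher genes. The cationic amino acid transporter slc7a2 (ENSDARG00000037097) was at 58.4 and 59.5 CPM in SH females and 47.2 and 52.3 CPM in SH males, against 23.7 to 28.9 CPM elsewhere. Its difference was 1.03 ± 0.05 (log2, SE). The gene slc3a1, whose product carries dibasic amino acid transporters to the membrane, was at 5.17 to 7.35 CPM in SH and 1.88 to 4.55 CPM in the others. Of 294 solute carrier genes, 39 lay above (13.3%) and 8 below the range (2.72%), shares close to those of all genes.

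**Figure D3:**
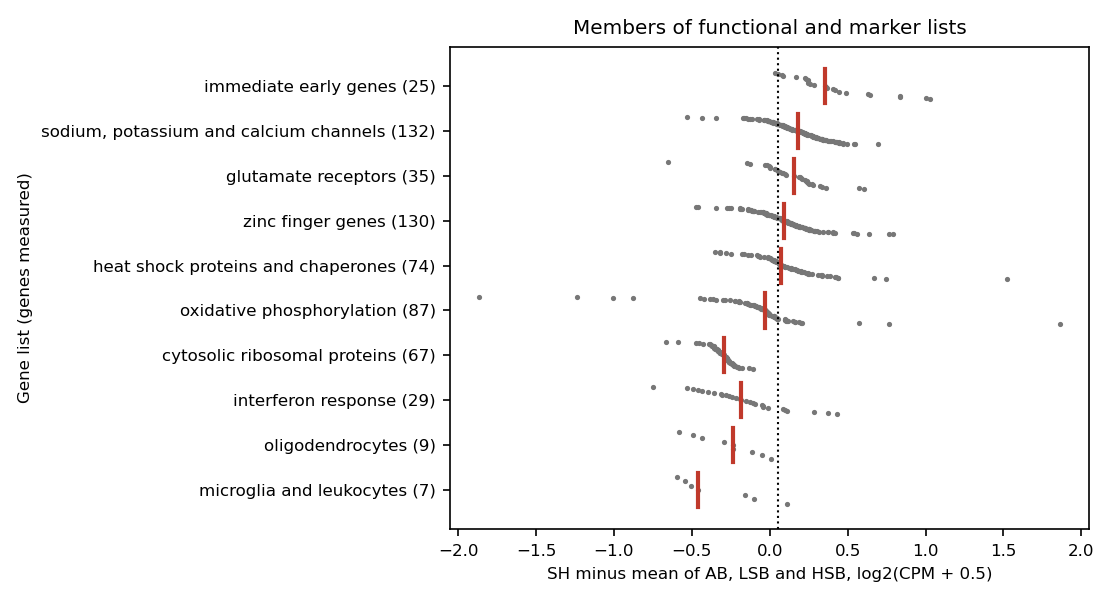
SH minus the mean of AB, LSB and HSB for the members of 10 lists, in log2(CPM + 0.5). Each gray point is a gene, red bars are list medians and the dotted line is the median of all genes at 0.06. The median of immediate early genes (0.36) lies to its right, and the medians of ribosomal protein, interferon response, myelin and leukocyte genes lie to its left.

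Among genes lower in SH, 3 neighbours in the reference annotation were close to absent. The gene si:ch211-181d7.3 (ENSDARG00000068621), named nlrc11 in the reference, was at 0.168 and 0.362 CPM in SH females and 0.156 and 0.294 CPM in SH males. Elsewhere it ran from 12.7 to 84.5 CPM (median 37.9 CPM), with means of 30.2 CPM in AB, 70.4 CPM in LSB and 21.5 CPM in HSB. SH held 30 reads of it in all and the other 12 libraries 13478. The fitted difference was -5.53 ± 0.26 (log2, SE; adjusted p = 6.3e-10, limma). Its neighbours CR457441.2 (0.168 to 0.392 CPM in SH, 7.06 to 37.5 CPM elsewhere) and si:ch211-181d7.1 (0.141 ± 0.051 CPM, SD, n = 4, and 2.63 ± 2.1 CPM, SD, n = 12) were low in the same libraries.

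A second pair of neighbours carries MHC class II names in the reference. The gene si:busm1-48c11.3 (ENSDARG00000055441), named mhc2dga, had 0, 1, 1 and 0 reads in the SH libraries and 124 to 382 reads in each of the others. Beside it, the gene named mhc2dgb was at 0.336 to 0.604 CPM in SH and 8.06 to 22.6 CPM elsewhere. Both were low in every SH library. With 0 to 1 read per library, the fitted difference of the first, -4.30, depends on the constant and was -6.41 with a constant of 0.1 CPM. Of 17 MHC and antigen presentation genes in the list, which did not hold these 2, limma called 2 higher (11.8%) and 6 lower (35.3%), beside 31.1% and 16.3% of all genes.

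Other genes were at or near 0 in SH. CABZ01056518.1 had 5 reads over the SH libraries and 2845 over the others, and si:ch211-114l13.1 had 9 and 5273. The second was also low in LSB, at 2.25 CPM on average, against 28.1 CPM in AB and 17.7 CPM in HSB. The caspase b like gene caspbl had 4 reads in SH and 2 to 18 reads in each LSB library, but 56 to 113 in each AB and HSB library, so it was low in both strains. SH male pool 1 and LSB female pool 2 each held 2 reads of caspbl, and only their different depths set them apart in CPM. A gene chosen after its values were seen, zgc:171500, had 0 reads in all 4 SH libraries, where a count of 3 reads is 0.0839 to 0.126 CPM, and 5 to 126 reads in each of the others.

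**Figure D4:**
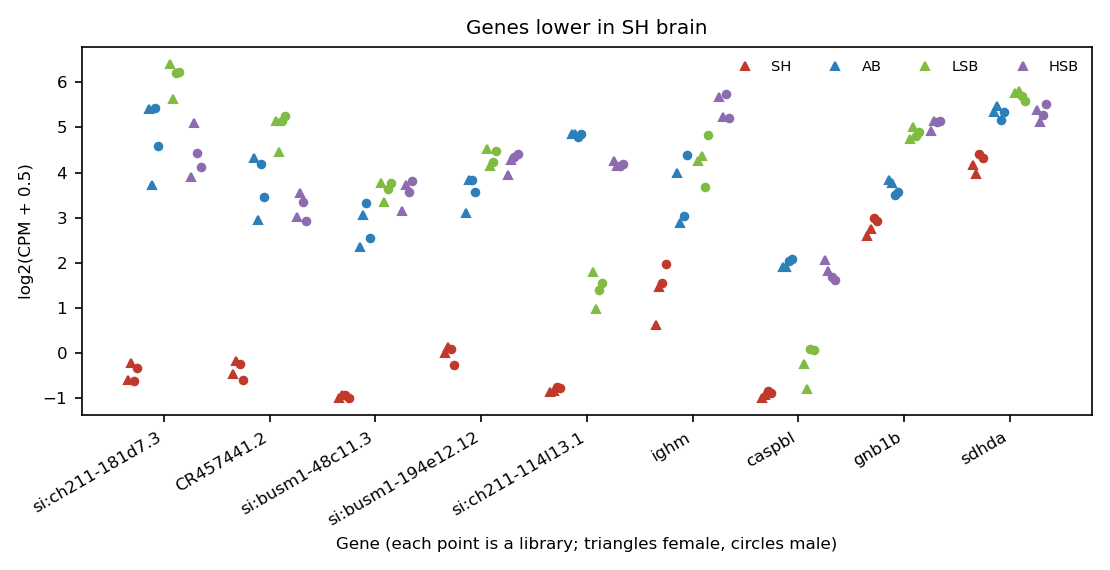
Levels of 9 genes lower in SH, on log2(CPM + 0.5). Each point is a library, with triangles for female and circles for male pools and colors for strains; the SH libraries lie near -1 (0 CPM) for si:busm1-48c11.3 and caspbl, and LSB is also low for caspbl and si:ch211-114l13.1.

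Single immune genes lower in SH included markers of B cells, T cells and microglia. Others were higher, such as il13ra2 (difference 0.85) and CFP (2 of 2) (0.73, log2). In the list of 86 immune genes counted below, 8 lay above the range and 5 below it. The immunoglobulin M heavy chain gene ighm (ENSDARG00000096355), expressed by B cells, was at 1.04 and 2.26 CPM in SH females and 2.46 and 3.44 CPM in SH males, against 6.86 to 52.9 CPM elsewhere. HSB was highest at 44.2 CPM on average, with 19.8 CPM in LSB and 12.6 CPM in AB. TRBC2, a T cell receptor beta constant gene, was at 1.18 to 2.65 CPM in SH and 4.51 to 18.5 CPM in the others. The chemokine gene ccl-c5a was at 7.81 to 10.6 CPM in SH and 16.5 to 31.5 CPM elsewhere, and the complement gene c1qa, expressed by microglia, at 2.44 to 3.4 and 4.08 to 8.48 CPM.

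Of 7 measured microglia and leukocyte markers, 2 lay below the range (28.6%, beside 4.1% of all genes), the macrophage gene mpeg1 and the leukocyte gene coro1a. Limma called 4 lower (57.1%, beside 16.3% of all genes) and 0 higher. The summed level of the list was 124 to 159 CPM in SH and 151 to 199 CPM in the others. Limma called 4 of the 7 lower also without both LSB pools numbered 2, and 5 after rescaling, beside 2609 and 3413 of all 15304 genes. The part of these markers in the immune gene differences was not tested. Of 29 interferon response genes, 0 lay outside the range, beside 12.3% above and 4.1% below it among all genes. Limma called 1 higher (3.45%) and 9 lower (31.0%), beside 31.1% and 16.3% of all genes. The counts were 1 and 14 after rescaling, beside 3385 and 3413 of all 15304 genes. In males alone they were 1 and 2, beside 3204 and 1539 of all genes. Of 86 complement, chemokine, interleukin and other immune genes, 8 lay above (9.3%) and 5 below the range (5.81%), beside 12.3% and 4.1% of all genes. Limma called 20 in each direction (23.3% each), beside 31.1% higher and 16.3% lower among all genes. After rescaling 17 were higher and 29 lower, beside the 3385 and 3413 of all genes.

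Myelin genes were lower. Limma called 7 of 9 oligodendrocyte markers lower (77.8%) and 0 higher, beside 16.3% and 31.1% of all genes. Below the range lay 3 (33.3%), beside 4.1% of all genes. The myelin basic protein gene mbpa was at 21542 ± 1741 CPM (SD, n = 4) in SH and 32329 ± 3896 CPM (SD, n = 12) in the others, a difference of -0.58. The myelin proteolipid gene plp1b was at 3361 ± 240 CPM (SD, n = 4) and 4555 ± 425 CPM (SD, n = 12).

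Of 67 cytosolic ribosomal protein genes, 10 lay below the range (14.9%) and 0 above it, beside 4.1% and 12.3% of all genes. Limma called 65 lower (97.0%) and 0 higher, beside 16.3% and 31.1%, with a median of -0.29. Their summed level was 20412 to 24734 CPM in SH and 23349 to 35762 CPM in the others, which overlap. The highest sum was that of LSB female pool 2, and HSB ran from 23349 to 28703 CPM. After rescaling, 21 lay below the range and limma called 66 lower, beside 1072 and 3413 of all 15304 genes. In females alone limma called 45 lower, beside 1534 of all genes. Genes of short span were also lower more often over all genes, and the part of span in this list was not tested. Of 87 oxidative phosphorylation genes, 4 lay below the range (4.6%, beside 4.1% of all genes) and 0 above it. The succinate dehydrogenase anchor gene sdhda (ENSDARG00000055712) was at 17.5 and 15.1 CPM in SH females and 20.7 and 19.5 CPM in SH males, against 34.1 to 55.3 CPM elsewhere. The ATP synthase gene atp5ia was at 57.1 to 67.8 CPM in SH and 98.1 to 136 CPM in the others. All 4 SH libraries of both were below all others, while the median of the list was -0.03 and limma called 8 of its genes higher (9.2%) and 20 lower (23.0%), beside 31.1% and 16.3% of all genes.

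The slow troponin gene tnni1b, a muscle filament gene, was at 0.845 to 1.46 CPM in SH and 3.73 to 8.61 CPM elsewhere. Of 10 skeletal muscle markers, 0 lay outside the range, beside 12.3% above and 4.1% below it among all genes. These markers could come from tissue left on the brain. Their summed level was 28.9 to 124 CPM in SH and 38.6 to 2199 CPM in the others. Limma called 5 lower (50%, beside 16.3% of all genes). The part of these markers in the tnni1b difference was not tested. Other lower genes included PLA2G4C (3 of 5), a phospholipase, at 0.504 to 0.951 CPM in SH, with means of 1.96 CPM in AB, 4.14 CPM in HSB and 31.6 CPM in LSB.

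Some symbols are carried by more than 1 gene model, and reads could be divided between near-identical copies. Of 293 models that share a symbol, 21.8% lay outside the range, beside 16.4% of all genes. There were 143 symbols with 2 models. In 6 such pairs, picked after their values were seen, ccbl2, cstf2, dlg3, scg5, sec22bb and st8sia1, one model lay above and the other below the range. For the neuroendocrine chaperone scg5, the first model was at 19.9 to 33.0 CPM in SH and 2.19 to 10.5 CPM elsewhere, and the second at 10.3 to 22.1 and 26.9 to 35.6 CPM. Summed, they were at 37.9 to 43.9 CPM in SH and 30.9 to 42.7 CPM in the others, which overlap. For sec22bb, a vesicle transport gene, the model higher in SH held 61.2% to 68.9% of the sum in SH and 17.8% to 33.7% elsewhere, while the sums were 24.8 to 28.7 CPM and 24.6 to 28.0 CPM.

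The sums overlapped between SH and the other libraries in 5 of the 6 pairs. The exception was st8sia1, a sialyltransferase of ganglioside synthesis, with sums of 12.8 to 19.3 CPM in SH and 20.9 to 36.5 CPM elsewhere. The G protein gene gnb1b also had a pair of models, of which one was at 5.57 to 7.45 CPM in SH and 10.8 to 35.0 CPM elsewhere, and the other, within the range, averaged 74.2 CPM in SH and 49.9 CPM in the others.

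**Figure D5:**
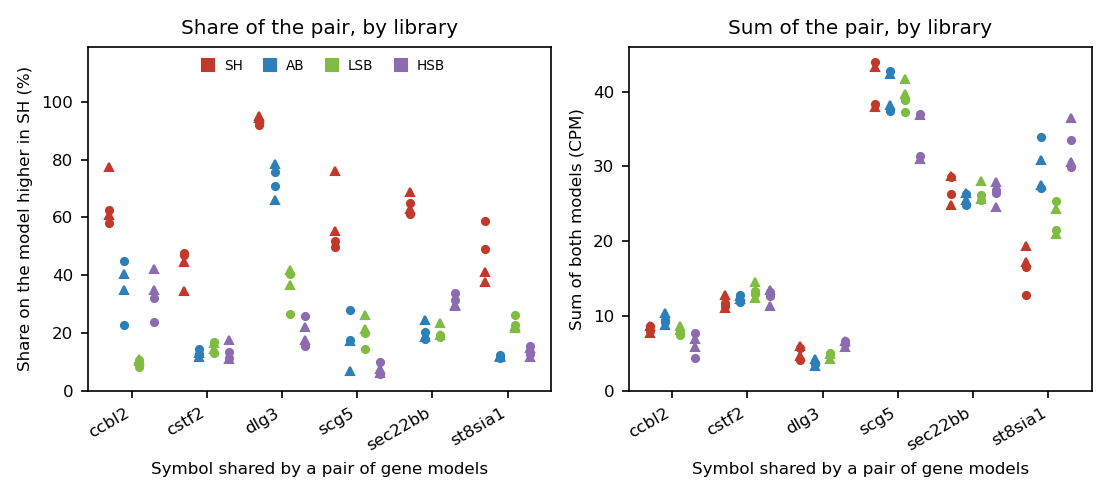
Pairs of gene models that share a symbol and lie on opposite sides of the range. Left, percent of the pair's summed CPM on the model higher in SH, by library; right, the sum in CPM. Triangles are female and circles male pools, and the sums of SH overlap the others for all but st8sia1.

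The order of genes in the reference was also read. Of 12560 genes placed there, 12.2% of those lower in SH had a lower neighbour, against 8.24% of the remaining genes, and 23.8% of those higher had a higher neighbour, a share near the 21.9% of the remaining genes. The longest runs had 5 genes. One run was higher throughout, with lhpp (0.48), oat (0.45), MTR (0.44), ryr2a (0.31) and fmn2b (0.23), of which oat encodes ornithine aminotransferase and MTR methionine synthase. The other was mixed, with mea1 (-0.41) and sft2d1 (-0.36) lower and ppp2r5d (0.22), CU571336.2 (0.28) and CU571336.1 (0.42) higher.

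The male minus female difference of SH departed from the mean of the other strains at 7 genes (0.0457%) in limma, and at 910 with an unadjusted p under 0.05 (5.95%). Of the 7, 0 lay outside the range, beside 16.4% of all genes. A large sex difference within SH spreads its libraries and so makes the range rule harder to meet. Without both LSB pools numbered 2 the count was 4. Without LSB female replicate 1 the count was 194, and over the other single libraries left out it fell as low as 1. The brain aromatase gene cyp19a1b, chosen after its values were seen and known to make estrogen in radial glia, was at 5757 and 5373 CPM in SH females and 2944 and 3118 CPM in SH males. Other females had 2228 to 3301 CPM and other males 1750 to 3028 CPM. The 2228 and 3028 CPM belong to the LSB pools numbered 2, and without them other females had 2820 to 3301 CPM and other males 1750 to 2270 CPM, which do not overlap. Those pools were doubted partly for their levels of this gene, so the lack of overlap is no separate evidence. The gene stayed within the range, at a difference of 0.69 ± 0.12 (log2, SE).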

How the data were processed

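Whole brain RNA of 16 pools was sequenced by the authors, who aligned single-end reads to the Zv9 genome with GSNAP, counted them on genes with HTSeq and used CASAVA 1.7 and edgeR. The deposited values are CPM, with no further scaling between libraries seen in them. All 16 value columns were assigned by name, and 0 were left unused. Depth was read from the smallest step of the CPM values; 100% of values were whole multiples of a read within 0.1 read, and 1 read was worth 0.0280 to 0.0544 CPM. No count test was run on those reads, since only 35 to 160 values per library lay within 20 times the lowest value, too few in most libraries for the check set on such a recovery.

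Values were analysed as log2(CPM + 0.5), so differences understate the change of low genes, with limma 3.58.1 in R 4.3.3 (lmFit, eBayes with a trend; strain and sex as terms; interaction in a model of 8 groups) and an adjusted p under 0.05. Tables and plots used Python 3.11.15 and pandas 2.3.3. The code was tested on simulated data. P-values measure the spread between pools. Genes named were, among those outside the range, the 12 largest in each direction passing against each of the 3 strains. The same was done among genes with gene names, with up to 4 per functional list and 6 runs of 3 or more neighbours. In each direction 2 genes on each side of the threshold were named. Up to 4 genes with an interaction were added, and all 7 were flagged, of which 0 lay outside the range. The comparison, members and lists were chosen with earlier results of these data known, and list patterns were corrected after values were seen. The 21 functional and 12 marker lists were counted, not tested. Reference names, order and spans came from RefSeq GRCz12tu, an assembly other than the Zv9 of the counts. Its start positions and lengths served only for gene order and span, and no coordinates are given.

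Alternatives were constants of 0.1 and 1 CPM, a mean CPM of at least 1, median-ratio rescaling, the pool number as a block, each sex alone, and leaving out each library, each other strain or both LSB pools numbered 2. List counts under these, and sums of same-symbol models, were added after seeing the data.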

Additional observations from a re-analysis of the deposited data

Results flagged for a closer look

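Among 143 named genes, 5 had an SH library far from the other 3, and chance flags about 1 in 20 groups. These were abca12 in SH male pool 1 (4.02 CPM), ahnak in SH male pool 1 (141 CPM), ptprdb in SH male pool 2 (79.2 CPM), pcnxl2 in SH male pool 1 (165 CPM) and pcdh2g3 in SH male pool 2 (0.798 CPM).

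At 7 genes the male minus female difference of SH departed from that of the other strains in limma's interaction test. For TUBB2B, a beta tubulin, the departure was 3.09 ± 0.31 (log2, SE; adjusted p = 0.0023, limma), with 0.392 and 0.543 CPM in SH females, 7.54 and 5.59 CPM in SH males and 6.48 to 21.2 CPM elsewhere. It was past the threshold in 25 of 25 alternatives, with adjusted p from 9.5e-05 to 0.037. The sterol synthesis genes hmgcs1 and SQLE departed by -0.72 and -0.76, female SH pools being higher (144 and 147 against 89.6 and 86.2 CPM, and 60.9 and 60.5 against 38.6 and 33.8 CPM). They passed in 23 and 21 of 25 alternatives. The linker histone genes h1fx (0.59) and h1f0 (0.59), the kinase gene pim2 (0.90) and the transporter gene slc16a9b (0.51) passed in 24, 7, 13 and 9 of 25.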

How the results depend on the processing

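Counts of called genes that moved by over 1.5 times are given here. With median-ratio rescaling, the range rule gave 1222 genes higher and 1072 lower in SH. In females only, limma called 2888 higher and 1534 lower, the range rule 3577 higher and 1605 lower, SH minus AB 2256 genes and SH minus HSB 1966. In males only, limma called 1539 lower, the range rule 3618 higher and 1601 lower, SH minus LSB 3938, SH minus HSB 3269 and AB, LSB and HSB among themselves 2500. Leaving out AB, LSB or HSB, the range rule gave 949, 981 and 1065 genes lower. Among the others, 2870 genes differed without AB and 3554 without HSB. A range over fewer libraries is easier to pass by construction, and the fits of 1 sex hold fewer samples and take the sex labels of the LSB pools numbered 2 as given. For other causes, the cause was not tested.

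Leaving out single libraries gave 3717 to 5014 genes higher and 1946 to 2641 lower in limma, 1914 to 2354 and 639 to 819 by the range rule, 4522 to 6706 against AB, 6294 to 7650 against LSB, 3877 to 6114 against HSB, 4715 to 6192 among the others and 1 to 194 for the sex by strain departure. This last count was 4 without both LSB pools numbered 2, 4 without AB and 2 without HSB. With the pool number as a replicate block, limma called 4785 higher and 2545 lower and 6 departures, and SH minus AB, LSB and HSB 5714, 7632 and 5137. Pool numbers were not used as a pairing in the main fit. The pool 1 minus pool 2 differences of 2 groups had a correlation over 0.1 in 5 of 28 pairs of groups (-0.219 to 0.311). A batch shared by pools of the same number was not tested.

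Over the 143 named genes and their 3861 alternatives, 3825 kept their direction and side of the threshold, 22 were no longer past it, 11 passed it newly and 3 reversed, all in the SH minus others difference in males only, hmgcs1 at -0.12, SQLE at -0.21 and h1fx at 0.027. Counts in lists moved by over 1.5 times in 162 of 1782 alternatives. Genes near 3 reads are limited by depth.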

Other observations

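After rescaling, limma called 3385 higher and 3413 lower of all 15304 genes, for comparison with the lists given here. Shares of all genes as deposited were 12.3% above and 4.1% below the range, and 31.1% higher and 16.3% lower in limma. Of 38 collagen chain genes, 5 lay above (13.2%) and 1 below the range (2.63%), near these shares, with col5a1, a fibrillar collagen, at 32.0 to 37.7 CPM in SH and 13.3 to 27.5 CPM elsewhere, and limma called 12 higher (31.6%) and 3 lower (7.89%), with 8 and 5 after rescaling. Of 31 circadian clock genes, 1 lay above (3.23%) and 3 below the range (9.68%). The clock output genes tefa (373 to 394 CPM in SH, 403 to 578 CPM elsewhere) and tefb (468 to 510 and 528 to 764 CPM) and the cryptochrome gene cry-dash were lower, and npas2, a partner of the clock protein Bmal, was higher at 20.6 to 26.7 CPM against 10.0 to 19.3 CPM.

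Of 51 cytochrome P450, glucuronosyltransferase and sulfotransferase genes, 5 lay above (9.8%) and 3 below the range (5.88%). The gene cyp46a2, of the family that hydroxylates cholesterol in brain, was at 8.75 to 11.7 CPM in SH and 14.3 to 19.8 CPM elsewhere. Of 44 glutathione and redox genes, limma called 6 higher (13.6%) and 13 lower (29.5%), and gsto1, a glutathione transferase, was at 46.1 to 53.9 CPM in SH and 62.4 to 84.0 CPM in the others. Of 130 zinc finger genes, 23 lay above (17.7%) and 4 below the range (3.08%). Of 59 protocadherin and cadherin genes, limma called 23 higher (39.0%) and 10 lower (16.9%), with 14 and 15 after rescaling, and the clustered genes pcdh1g26 and pcdh2ab7, adhesion proteins whose copies resemble each other, went opposite ways (-1.45 and 0.99).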
